A study of Homo sapiens with 8 samples.

Results

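The baseline transcriptome of 143B osteosarcoma cells carrying a vector plasmid was described from 4 control libraries. 143B is an established human line derived from an osteosarcoma by oncogene transformation and by selection for loss of thymidine kinase activity. The genes described are the 14257 of 54174 symbols in the deposited table that had a value in all 4 control libraries, which are 4 of the 8 samples of the series. The other 4 samples, transfected with a plasmid labelled for NELL1 knockout, were not used. The control cells were grown in serum-containing medium, received a vector plasmid by transient transfection, carry the genotype label control, and were sampled at 48 h. The labels used here do not say whether transfected cells were selected before sampling. The labels speak of biological replicates, but all libraries came from 1 cell line, so the SDs given (n = 4 throughout unless stated) describe the spread between cultures or preparations of that line.

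Osteoblasts arise from mesenchymal precursors under the transcription factors RUNX2 and, downstream of it, SP7, and then lay down a matrix of type I collagen that they mineralise with the help of alkaline phosphatase, bone sialoprotein and osteocalcin. Osteosarcoma is defined by tumour cells that make bone-like matrix, yet its cell lines differ widely in how much of that programme they retain. The matrix around such cells is built by collagens, glycoproteins and proteoglycans, cut by proteases such as the matrix metalloproteinases, and sensed through integrins and receptor tyrosine kinases.

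Values are logarithms as the authors deposited them, already forced to a common distribution between libraries. They are read here as log2, a base that was inferred. Ratios and shares of the summed unlogged level depend on that base. The unit before the logarithm is not stated and no read counts are given, so the depth of each library is unknown and no counting error can be attached to a value. The levels ran from -10.48 to 12.13, the median gene had a mean level of 1.95, and a gene needed a mean level of 4.86 to reach the top 10%. Each gene is also given a percentile, its rank among the 14257 genes with 100 the highest. For any list, 50 is then the median percentile over all genes and 10% is the share of all genes in the top 10%. The rule behind blank cells is not given. Of the symbols, 38156 were blank in all 4 control libraries, 822 had a value in 1 library, 478 in 2 and 461 in 3. Of the 19026 protein-coding symbols, 3506 were blank in all 4, and counts of blank genes in a list are to be read against that share. Long noncoding RNA genes had a value throughout for 36 of 12265 symbols, and MALAT1 and NEAT1, which most human cells make in quantity, were blank. A blank is therefore reported as a blank and not as a gene that is silent.

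The 4 control libraries were not equally close. Over the 9004 genes with a mean level of at least 1, the difference between 2 libraries had an SD across genes of 0.10 for libraries 1 and 2, 0.13 and 0.15 for library 4 against libraries 2 and 1, and 0.19 for libraries 3 and 4. It was 0.27 and 0.29 for library 3 against libraries 2 and 1. Library 3 thus stood apart, libraries 1 and 2 were nearly alike, and library 4 lay nearer to libraries 1 and 2. Without counts there was no way to ask whether libraries 1 and 2 differ beyond sampling noise, and the labels give them as separate replicates.

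The highest levels belonged to genes of protein synthesis, the cytoskeleton and 1 matrix protease. Of the 20 highest genes, 15 encode ribosomal proteins, led by RPS18, and 59 of the 100 highest do. The 82 measured ribosomal protein genes had a median percentile of 99.6 and made up 26.8% of the summed unlogged level. RPS18 had the value 12.13 in every library because the common distribution fixes the top rank. The 5 other genes among the 20 highest were EEF1A1 (11.91), a translation elongation factor, S100A6 (11.30), a calcium-binding protein, MMP1 (11.22), GAPDH (11.07), a glycolytic enzyme, and VIM (10.83), the intermediate filament protein of mesenchymal cells. MMP1 encodes interstitial collagenase, which cuts fibrillar collagens. It read 11.41, 11.41, 10.81 and 11.25 in libraries 1 to 4, a mean of 11.22 ± 0.28 (SD) and the fifth highest level of all genes. Library 3 had the lowest MMP1 value and libraries 1 and 2 the highest. MMP1 alone made up 0.830% of the summed unlogged level, and VIM 0.627%.

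**Figure D1:**
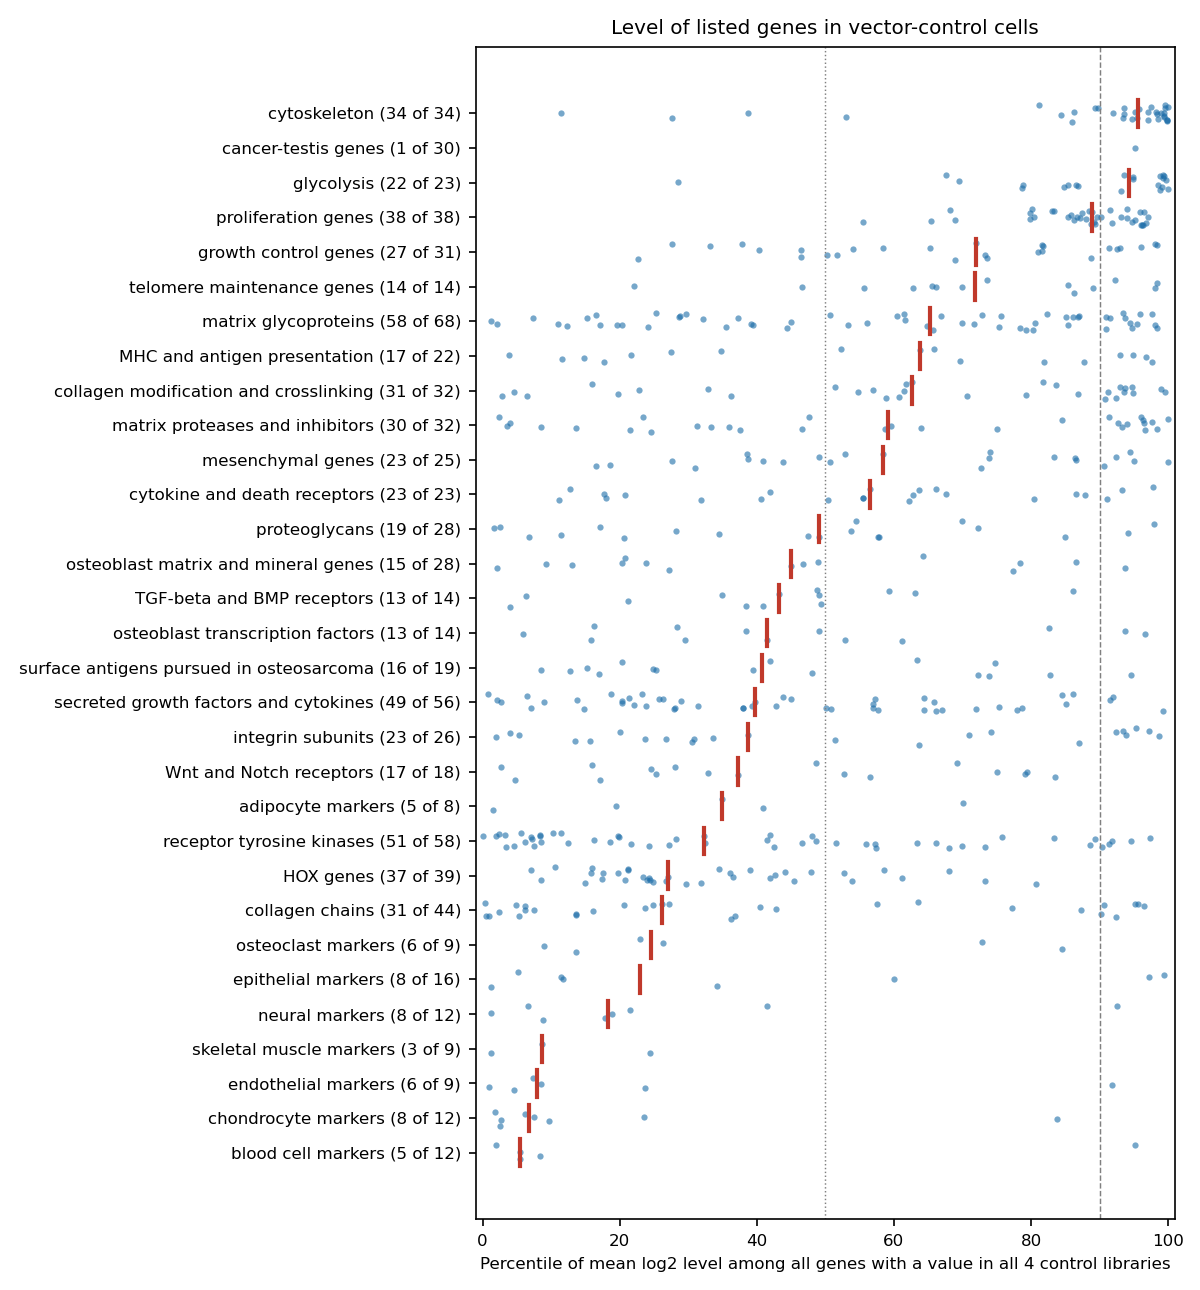
Percentile of each listed gene (points) among the 14257 genes with a value in all 4 control libraries, by gene list, with the list's median as a red bar; the brackets give how many of the listed genes had a value in all 4. Cytoskeleton, glycolysis and proliferation genes sit towards the right, with medians of 95.5, 94.2 and 88.8, and the markers of blood cells, chondrocytes and endothelium towards the left, while the cancer-testis list has 1 measured gene.

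The osteoblast transcription factors were measured but mostly not high. Of 14, 13 had a value in all libraries, with a median percentile of 41.4, and 2 lay in the top 10%. These were ATF4 (6.30 ± 0.04, percentile 96.6), which also serves the general amino acid stress response, and the homeobox gene MSX1 (5.49 ± 0.08, percentile 93.7). RUNX2, the master regulator of the osteoblast lineage, read 0.22, 0.12, 0.05 and 0.43, a mean of 0.20 ± 0.17 (SD) at percentile 28.4. Its libraries lay close together and every value was below the median gene. SP7, which encodes osterix and acts after RUNX2, was blank in all 4 libraries. HEY1, a Notch target, stood at 4.07 ± 0.37, FOSL2, a Fos family member, at 2.66 ± 0.04, and the mesenchymal regulators TWIST1 and PRRX1 at 2.15 ± 0.14 and 1.89 ± 0.22. The homeobox genes DLX5 (-1.75) and DLX3 (-4.35) were lower and are named here after their values were seen.

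Among 28 genes of the osteoblast matrix and of mineralisation, 15 had a value in all libraries, 4 in some and 9 in none. Among all protein-coding symbols, 3506 of 19026 had none. The median percentile of the 15 was 44.9, and SPARC alone lay in the top 10%. SPARC, or osteonectin, is a collagen-binding protein that many mesenchymal cells also secrete. It read 5.27, 5.23, 5.94 and 5.53, a mean of 5.49 ± 0.33 (SD), with library 3 the highest. Next came CDH11 (4.47 ± 0.33), the osteoblast cadherin, SPP1, TNFRSF11B (3.68 ± 0.26), the decoy receptor osteoprotegerin, ANKH (2.83 ± 0.06), a pyrophosphate transporter, and ENPP1 (1.88 ± 0.40), which makes pyrophosphate. SPP1 encodes osteopontin and read 3.08, 3.21, 4.70 and 4.00, a mean of 3.75 ± 0.76 (SD) at percentile 78.4. Its values in libraries 3 and 4 lay above both of the others, and the range of 1.63 was wide for a gene of its level.

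The genes that define mineralising osteoblasts were low or blank. ALPL, tissue-nonspecific alkaline phosphatase, read -1.23, -0.34, -0.99 and -0.95, a mean of -0.88 ± 0.38 (SD) at percentile 20.4. COL1A1, the alpha 1 chain of type I collagen, read -0.33, -0.30, 0.65 and 0.24, a mean of 0.06 ± 0.47 (SD) at percentile 27.2. COL1A2, which encodes the partner chain of the same trimer, had -7.53 and -7.55 in libraries 1 and 2 and was blank in libraries 3 and 4, near the lower end of all values. BGLAP, or osteocalcin, had a value in library 1 only (-1.46) and overlaps neighbouring genes, so its reading is uncertain. Bone sialoprotein (IBSP), the osteocyte genes DMP1, MEPE and SOST, the osteoblast membrane gene IFITM5, the small proteoglycans OMD and OGN, SPARCL1 and the osteoclast-inducing ligand TNFSF11 were blank in all 4. NELL1, a secreted glycoprotein that promotes bone formation and the subject of the series, read -6.97, -6.97, -4.53 and -5.0, a mean of -5.87 ± 1.29 (SD) at percentile 2.06. Its level was thus close to the floor of the table before any knockout, with libraries 1 and 2 the lowest. NELL2, its paralog, stood at 1.17 ± 0.17 (percentile 39.1) and is named here after its values were seen.

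**Figure D2:**
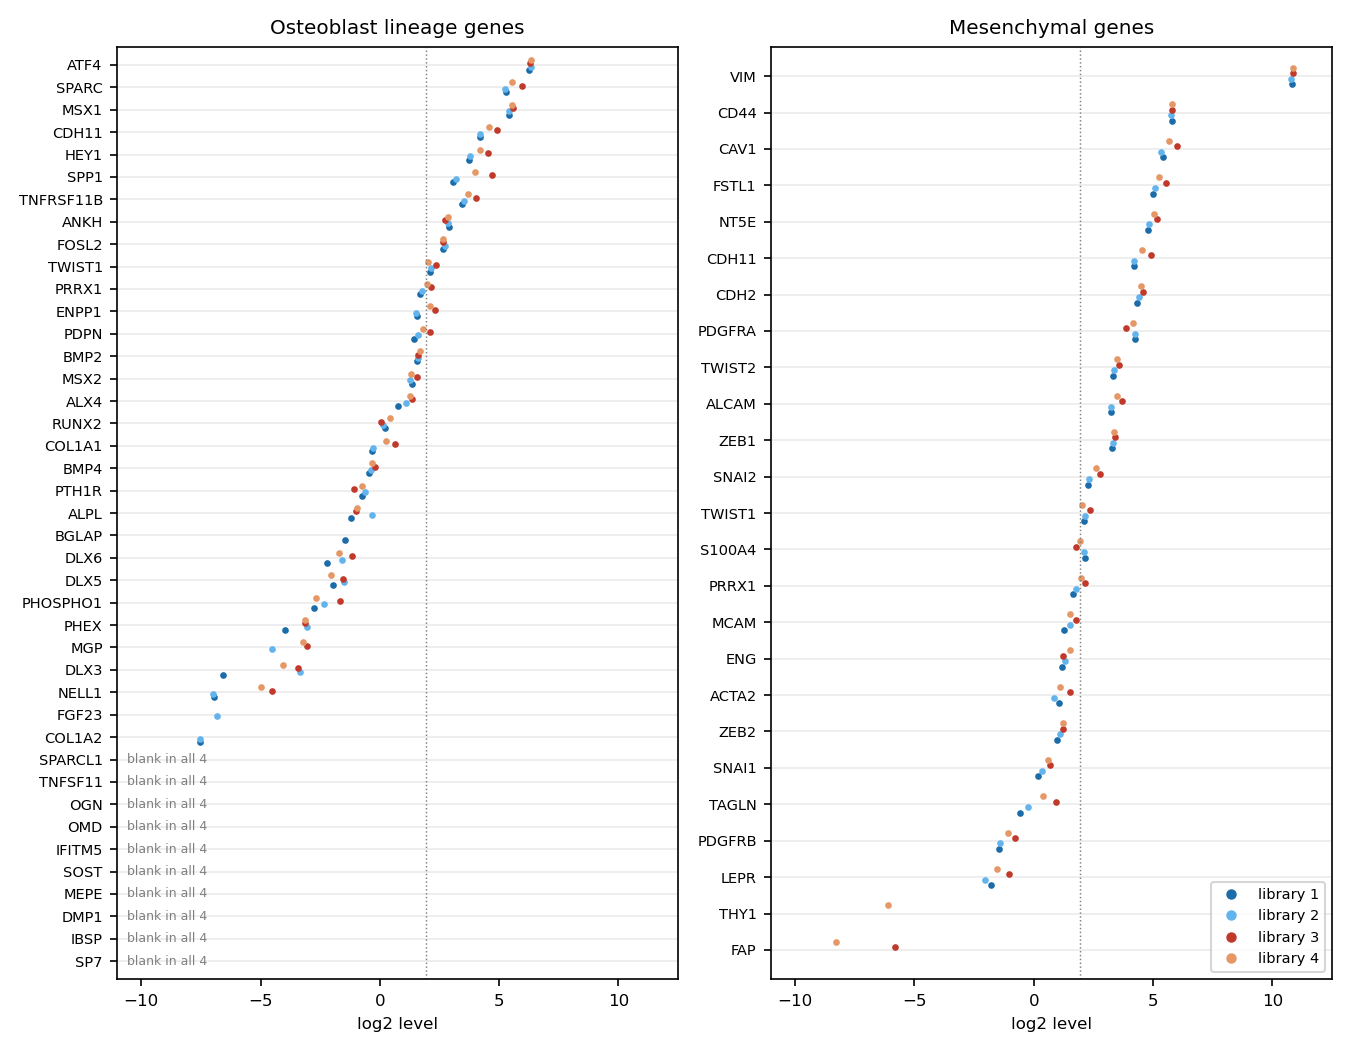
Deposited level, read as log2, in each of the 4 control libraries (points) of osteoblast lineage genes (left) and mesenchymal genes (right), ordered by mean, with the median of all genes as a dotted line. SPARC and CDH11 lie to the right of the median while RUNX2, COL1A1 and ALPL lie to its left, SP7 and IBSP are blank in all 4, and VIM stands far above the other mesenchymal genes.

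Mesenchymal genes were, by contrast, nearly all measured. Of 25, 23 had a value in all libraries, with a median percentile of 58.4, and 5 lay in the top 10%. These were VIM, CD44 (5.78 ± 0.02), the hyaluronan receptor, CAV1 (5.61 ± 0.29), the caveolae coat protein, FSTL1 (5.22 ± 0.25), a secreted glycoprotein, and NT5E (4.95 ± 0.19), the surface enzyme CD73. VIM read 10.83, 10.79, 10.85 and 10.87, and its libraries were almost identical. CD44 and CAV1 differed by 0.17 ± 0.29 (SD) in log2 level, less than the spread between libraries. THY1, the surface protein CD90 of mesenchymal stromal cells, had a value in library 4 only (-6.12), and FAP, a stromal surface protease, in libraries 3 and 4 only. Both of these genes are commonly high in fibroblasts.

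Markers of 8 other cell types were checked against the label. Of 87 genes, 49 had a value in all libraries, 15 in some and 23 in none. The 49 had a median percentile of 11.7, 34 of them lay under the 25th percentile, and 5 lay in the top 10%. These 5 were the keratins KRT18 (8.84 ± 0.06) and KRT8 (6.58 ± 0.05), which pair in simple epithelia, CD68 (5.84 ± 0.08), a lysosomal protein of macrophages and other cells, TUBB3 (5.25 ± 0.19), a beta tubulin of neurons and many tumours, and TIE1 (5.11 ± 0.10), an endothelial receptor. Another 5 lay above the median gene: the matrix metalloproteinase MMP9 of osteoclasts (4.23 ± 0.26), the osteoclast receptor OSCAR (3.37 ± 0.39), the epithelial adhesion molecule EPCAM (2.59 ± 0.15, percentile 60.04), and SOX9 and PPARG. Other defining genes were low or blank. The leukocyte gene PTPRC, the epithelial regulator GRHL2, the muscle regulators MYOD1 and MYOG and the neural crest factor SOX10 were blank in all 4. CDH1, or E-cadherin, had -7.49 and -7.40 in libraries 2 and 3 and was blank in libraries 1 and 4, and the endothelial PECAM1 and VWF stood at -3.85 and -6.55. KRT18 exceeded KRT8 by 2.26 ± 0.11 (SD) on the log2 scale in every library, and VIM exceeded KRT18 by 2.00 ± 0.08. Regulators of neighbouring mesenchymal fates were spread over the whole range. SOX9, the chondrocyte regulator, stood at 4.18 ± 0.04 (percentile 83.8), while SOX5 and SOX6, which act with it in cartilage, stood at -5.95 ± 0.52 and -5.55 ± 0.28 (percentiles 1.84 and 2.67). The adipocyte regulators PPARG and CEBPA stood at 3.19 ± 0.08 (percentile 70.0) and 0.83 ± 0.11 (percentile 34.97). MMP9, OSCAR, EPCAM, SOX5, SOX6 and CEBPA are named after their values were seen. The cartilage products COL2A1 (-3.85) and ACAN (-5.61) and the fat product PLIN1 (-6.08) lay under the 10th percentile. In RNA from a whole culture, few cells with a high level and many with a low one cannot be told apart.

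The collagen transcripts of the cells were centred on network and beaded-filament collagens and not on type I. Of 44 collagen chain genes, 31 had a value in all libraries, 10 in some and 3 in none, and the median percentile of the 31 was 26.2. The 6 in the top 10% were COL4A2 of basement membrane collagen, COL6A1, COL6A2 and COL6A3 of the microfibrillar type VI, COL5A2 of the fibril-forming type V and COL13A1, a transmembrane collagen. COL5A1, the partner chain of COL5A2, stood far lower at 0.99 ± 0.33 (percentile 36.8) and is named after its values were seen. COL4A2 read 6.21, 6.20, 6.35 and 6.36, a mean of 6.28 ± 0.09 (SD). COL6A3 read 6.11, 6.05, 5.66 and 6.0, COL6A2 read 5.80, 5.82, 5.80 and 5.86, and COL6A1 read 5.25, 5.18, 5.27 and 5.25. COL6A2 and COL6A1 varied little, and library 3 was the low one for COL6A3. COL6A3 and COL6A2 differed by 0.14 ± 0.20 (SD), within the spread, while COL6A2 exceeded COL6A1 by 0.58 ± 0.05 in every library. COL4A2 exceeded its gene neighbour and trimer partner COL4A1 (4.52 ± 0.07) by 1.76 ± 0.05.

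Against the type I chain the distance was large. COL6A2 exceeded COL1A1 by 5.76 ± 0.46 (SD) on the log2 scale, a ratio of 54.1, and COL4A2 exceeded it by 6.21 ± 0.39, a ratio of 74.2. COL5A2 (4.94 ± 0.35) exceeded it by 4.88 ± 0.14, and both had their highest value in library 3. COL3A1, the other main chain of interstitial fibrils, read -7.63, -3.53 and -5.37 in libraries 1, 3 and 4 and was blank in library 2. COL10A1, the collagen of hypertrophic cartilage, was blank in all 4, as were COL6A6 and COL23A1. These ratios compare levels of different genes and rest on the deposited scale. Its 100 lowest genes were long, as in values divided by transcript length, but low genes above them were not. Whether levels are per length is therefore not settled.

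**Figure D3:**
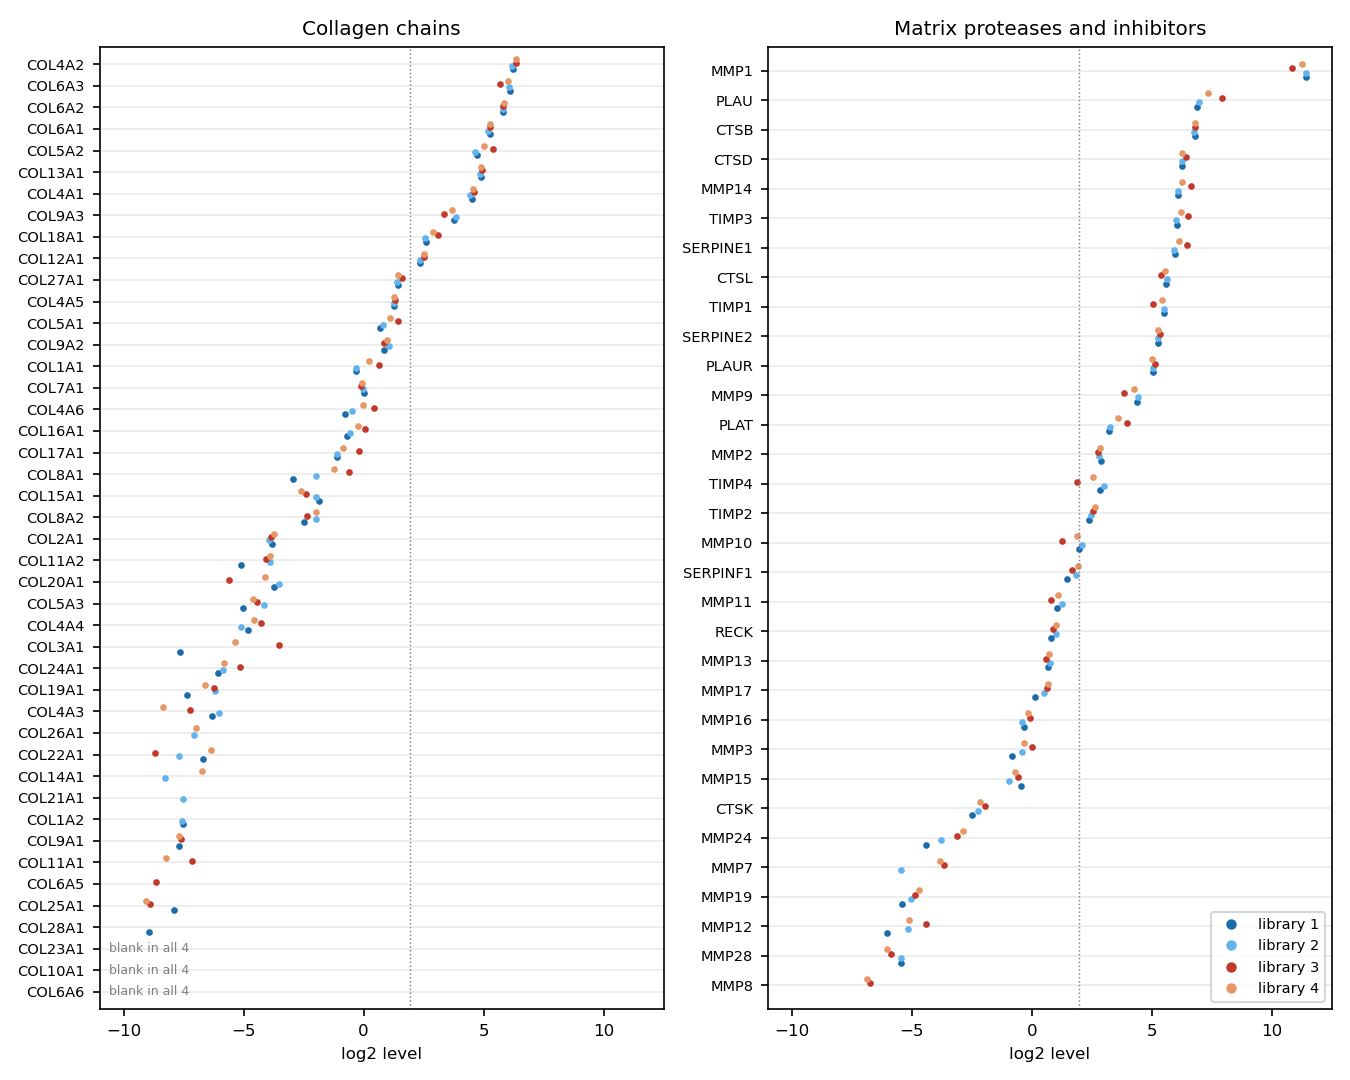
Deposited level, read as log2, in each of the 4 control libraries (points) of collagen chains (left) and of matrix proteases and their inhibitors (right), ordered by mean, with the median of all genes as a dotted line. COL4A2, COL6A1, COL6A2 and COL6A3 lie above 5, COL1A1 lies near 0, and MMP1 lies near 11 with library 3 as its lowest point.

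Matrix glycoproteins were the best represented of the structural matrix classes. Of 68, 58 had a value in all libraries, with a median percentile of 65.3, and 12 lay in the top 10%. The highest were LAMB3 (7.34 ± 0.06) and LAMB1 (6.74 ± 0.10), beta chains of laminins, TGFBI (7.10 ± 0.17), a TGF-beta-induced adhesion protein, FN1 (6.07 ± 0.07), which encodes fibronectin, and the growth factor binding proteins IGFBP7 (5.91 ± 0.19) and IGFBP3 (5.71 ± 0.51). IGFBP3 read 6.03, 6.07, 4.98 and 5.75, with library 3 well below the others. Laminin chains assemble as trimers, and the chains that form the laminin of epithelial anchoring filaments were far from equal. LAMB3 exceeded its partner LAMA3 (0.57 ± 0.21) by 6.78 ± 0.27 on the log2 scale. For the chains of the classical laminin of embryonic basement membranes the distances were smaller: LAMB1 exceeded LAMC1 (5.62 ± 0.05) by 1.12 ± 0.13, and LAMC1 exceeded LAMA1 (4.49 ± 0.04) by 1.13 ± 0.05. The partner chains LAMA3 and LAMA1 are named after their values were seen. Periostin (POSTN), elastin (ELN) and vitronectin (VTN) had a value in some libraries only.

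The highest proteoglycans included several of the cell surface, and most of the small proteoglycans of fibrillar matrix were blank. Of 28, 19 had a value in all libraries, with a median percentile of 49.1. The 2 in the top 10% were ESM1 (6.94 ± 0.12), a secreted proteoglycan known from endothelium and tumours, and SDC4 (5.57 ± 0.29), a syndecan of focal adhesions. SDC1 (4.28 ± 0.19), CSPG4 (3.32 ± 0.44), also known as NG2, and GPC1 (3.19 ± 0.17) followed, and all of these sit at the cell surface. Of the small leucine-rich proteoglycans, a family that includes collagen-binding members, BGN, or biglycan, had a value in all libraries, 2.21 ± 0.11 (percentile 53.7). DCN, FMOD, ASPN, OGN and OMD were blank in all 4, as was GPC3, and LUM and PRELP had a value in 1 library each. BGN, LUM and PRELP are named after their values were seen.

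Genes for collagen folding and crosslinking were well represented despite the low type I chains. Of 32, 31 had a value in all libraries, with a median percentile of 62.7, and 10 lay in the top 10%. PPIB (9.50 ± 0.12), a prolyl isomerase, and P4HB (7.92 ± 0.09), a subunit of prolyl 4-hydroxylase and a general disulfide isomerase, serve many secreted proteins. P4HA1 (5.73 ± 0.47), the catalytic prolyl hydroxylase subunit, read 6.01, 6.05, 5.05 and 5.80, and library 3 was again the low one. FKBP10 (5.70 ± 0.08), a collagen chaperone, LOXL2 (5.45 ± 0.04), a crosslinking oxidase, and SEC13 (5.43 ± 0.08), a coat protein of secretory vesicles, were next.

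Proteases and inhibitors of the matrix had 11 of 30 measured genes in the top 10%, from a list of 32, and a median percentile of 59.1. After MMP1 came PLAU (7.26 ± 0.47), the urokinase plasminogen activator, the lysosomal proteases CTSB (6.77 ± 0.02) and CTSD (6.30 ± 0.08), the membrane collagenase MMP14 (6.26 ± 0.25) and the inhibitor TIMP3 (6.19 ± 0.22). PLAU read 6.87, 6.96, 7.90 and 7.33, with library 3 the highest, so PLAU and MMP1 stood at opposite ends in that library. MMP14 and TIMP3 differed by 0.07 ± 0.05 (SD) and had their highest value in the same library. MMP1 exceeded MMP14 by 4.96 ± 0.53 and the inhibitor TIMP1 (5.38 ± 0.22) by 5.84 ± 0.06. The MMP1 gene lies at chr11:102789919-102798160 (RefSeq, GRCh38.p14) in a cluster of metalloproteinase genes, and its level was not shared by the cluster. MMP10, which encodes stromelysin-2, stood at 1.79 ± 0.37, MMP13 (collagenase-3) at 0.68 ± 0.06, MMP3 (stromelysin-1) at -0.40 ± 0.34 and MMP12 (macrophage elastase) at -5.18 ± 0.68. MMP7 and MMP8 had values in some libraries only. MMP1 exceeded MMP10 by 9.43 ± 0.10, a ratio of 688. The neighbours of MMP1 are named after their values were seen.

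Receptor tyrosine kinases had 51 of 58 genes measured in all libraries, a median percentile of 32.3 and 5 genes in the top 10%. AXL, the receptor for GAS6, read 6.57, 6.50, 6.72 and 6.60, a mean of 6.60 ± 0.09 (SD), and was the highest of the class in each library. It was followed by the ephrin receptor EPHA2 (5.64 ± 0.08), TIE1, the Wnt-binding pseudokinases PTK7 (5.06 ± 0.08) and RYK (4.90 ± 0.08), and the hepatocyte growth factor receptor MET (4.76 ± 0.03). AXL exceeded EPHA2 by 0.95 ± 0.17, and EPHA2 exceeded TIE1 by 0.53 ± 0.03. The next steps were smaller: TIE1 exceeded PTK7 by 0.06 ± 0.03, PTK7 exceeded RYK by 0.16 ± 0.04, RYK exceeded MET by 0.14 ± 0.09, and MET exceeded EGFR (4.67 ± 0.08) by 0.09 ± 0.08. Each of these differences had the same sign in all 4 libraries, and the step from MET to EGFR was about as large as its SD. The platelet-derived growth factor receptors were unequal: PDGFRA read 4.26, 4.26, 3.87 and 4.16, and PDGFRB read -1.46, -1.41, -0.80 and -1.09. PDGFRA exceeded PDGFRB by 5.33 ± 0.48 in log2 level, and library 3 had the smallest distance. The receptors EGFR and PDGFRB are named after their values were seen. EPHA7, EPHA8 and EPHA10 were blank in all 4.

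Integrin subunits had 23 of 26 genes measured, a median percentile of 38.8 and 6 genes in the top 10%. The shared beta 1 subunit ITGB1 (7.70 ± 0.05) was the highest, followed by ITGA3 (6.53 ± 0.03), ITGA2 (5.88 ± 0.05) and ITGA6 (5.52 ± 0.07), which pair with it to bind laminins or collagens. ITGB5 (5.40 ± 0.03), the partner of alpha V in vitronectin binding, and ITGA5 (5.21 ± 0.06), the fibronectin receptor subunit, completed the 6. The order ITGB1, ITGA3, ITGA2, ITGA6 held in every library. ITGA8 was blank in all 4. ITGA10, a collagen-binding subunit of cartilage, read 2.30, 2.46, 3.56 and 2.86 and was the one integrin gene with a mean of at least 1 and an SD of at least 0.5.

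Receptors for bone-active ligands were at middle levels. In the TGF-beta and BMP class, 13 of 14 genes were measured, with a median percentile of 43.3 and none in the top 10%. TGFBR2 (4.42 ± 0.06) led and exceeded TGFBR1 (2.77 ± 0.08) by 1.65 ± 0.13. BMPR1A stood at 2.54 ± 0.05. Of the Wnt and Notch receptors, 17 of 18 were measured, with a median percentile of 37.3, also with none in the top 10%. NOTCH2 (4.14 ± 0.05), the Wnt co-receptor LRP5 (3.83 ± 0.12) and FZD6 (3.81 ± 0.28) were the highest. All 23 cytokine and death receptors were measured, with a median percentile of 56.5. The TWEAK receptor TNFRSF12A (6.89 ± 0.13), the TRAIL receptor TNFRSF10B (5.36 ± 0.07) and the interleukin-6 family signal transducer IL6ST (5.01 ± 0.14) lay in the top 10%. PTH1R, the parathyroid hormone receptor of osteoblasts, read -0.76, -0.62, -1.08 and -0.73, under the 25th percentile in the mean, and is named after its values were seen.

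Surface antigens that have been pursued as targets in osteosarcoma were measured for 16 of 19 genes, with a median percentile of 40.7. EPHA2 was in the top 10%. CD276, which encodes B7-H3, read 4.01, 3.98, 4.26 and 4.06, a mean of 4.08 ± 0.12 (SD), and the phagocytosis inhibitor CD47 stood at 3.49 ± 0.15. ALCAM (3.42 ± 0.22), CSPG4 and IGF1R (2.79 ± 0.07) were next. GPC3 was blank in all 4.

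All 38 proliferation genes were measured and all lay above the median gene. Their median percentile was 88.8, and 15 lay in the top 10%. The replication helicase subunit MCM7 (6.48 ± 0.09), the clamp PCNA (6.35 ± 0.08), the ribonucleotide reductase subunit RRM1 (6.27 ± 0.11) and MCM3 (6.23 ± 0.03), MCM4 (6.15 ± 0.04) and MCM2 (6.09 ± 0.07) were the highest. MKI67, the Ki-67 antigen, read 2.82, 2.79, 3.50 and 3.33, a mean of 3.11 ± 0.36 (SD) at percentile 68.9, with libraries 3 and 4 above libraries 1 and 2. TK1, which encodes cytosolic thymidine kinase, read 3.78, 3.79, 4.22 and 3.80, a mean of 3.90 ± 0.22 (SD) at percentile 80.4. The transcript was therefore present in a line selected for loss of that enzyme's activity, 1.64 ± 0.17 below thymidylate synthase TYMS on the log2 scale. Whether the TK1 transcript carries a change of sequence cannot be read from a table of levels.

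Growth control genes were measured for 27 of 31, with a median percentile of 71.9, and 6 lay in the top 10%. Cyclin D1 (CCND1) drives entry into the cell cycle and read 7.11, 7.04, 7.24 and 7.07, a mean of 7.12 ± 0.09 (SD) at percentile 98.1. It exceeded cyclin D2 (CCND2) by 3.13 ± 0.12 in every library. Its kinase partner CDK4 (6.14 ± 0.09), the signalling GTPase NRAS (5.33 ± 0.12) and the cell cycle inhibitor CDKN1A (5.05 ± 0.04) were also in the top 10%. CDK4 exceeded CDK6 by 2.20 ± 0.12. Both CCND2 and CDK6 are named after their values were seen.

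CDKN2A, CDKN2B and MTAP were blank in all 4 libraries. CDKN2A encodes the cyclin-dependent kinase inhibitor p16 and the growth suppressor ARF, CDKN2B the inhibitor p15, and MTAP an enzyme of methionine salvage that most cells express. The 3 genes are adjacent on chromosome 9, with MTAP at chr9:21802636-21941115, CDKN2A at chr9:21967752-21995324 and CDKN2B at chr9:22002903-22009313 (RefSeq, GRCh38.p14). Coding genes on both sides had values. KLHL9, a ubiquitin ligase adaptor, stood at 3.59 ± 0.04 and FOCAD at 4.20 ± 0.09 on the side of lower coordinates, and CAAP1, an apoptosis inhibitor, at 3.64 ± 0.05 on the other. HACD4, an enzyme of fatty acid elongation that lies next to FOCAD, was blank in all 4. Between KLHL9 and MTAP the interferon gene IFNE was measured at -4.65 ± 1.34, and beyond CDKN2B the first coding gene, DMRTA1, stood at 0.22 ± 0.33. The block from MLLT3 to CAAP1 holds 28 coding genes, of which 16 are interferon genes, and 14 of these were also blank, so a run of blanks there is partly made of genes that few cells express. DNA copy number was not measured. The flanking genes are named after their values were seen.

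Telomere maintenance genes were measured for all 14, with a median percentile of 71.8. The telomerase RNA-binding proteins NOP10 (7.34 ± 0.17), NHP2 (7.11 ± 0.08) and DKC1 (5.20 ± 0.07) were in the top 10%, and these also serve ribosomal RNA modification. TERT, the catalytic subunit of telomerase, read -0.78, -0.89, -0.35 and -0.39, a mean of -0.60 ± 0.28 (SD) at percentile 22.1. ATRX, the chromatin remodeller often lost in tumours that lengthen telomeres by recombination, read 3.44, 3.39, 3.34 and 3.46. TERT and ATRX are named after their values were seen.

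HOX genes, which record position along the body axis, were measured for 37 of 39, with a median percentile of 27.1 and none in the top 10%. HOXB9 (3.92 ± 0.12), HOXB7 (3.39 ± 0.16), HOXA9 (3.06 ± 0.08), HOXB4 (2.66 ± 0.22), HOXB2 (2.50 ± 0.20) and HOXA10 (2.22 ± 0.09) were the highest. The B cluster had a median percentile of 47.9 over 9 genes, the C cluster 35.3 over 8, the D cluster 24.4 over 9 and the A cluster 21.2 over 11. Cancer-testis genes, which are silent in most somatic cells, were blank in all 4 libraries for 26 of 30, among them MAGEA3, MAGEA4 and SSX1. The exception with values throughout was PRAME, which read 5.78, 5.86, 5.88 and 5.85, a mean of 5.84 ± 0.04 (SD) at percentile 95.2.

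Antigen presentation genes were measured for 17 of 22, with a median percentile of 63.8. The class I heavy chains HLA-B (5.74 ± 0.22) and HLA-C (5.32 ± 0.17) and the light chain B2M (6.32 ± 0.09) were among the 4 in the top 10%. Because these heavy chains are alike and polymorphic, the split of reads between them is uncertain. CD74, the class II invariant chain, was blank in all 4, and the class II regulator CIITA had a value in library 2 only.

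Secreted growth factors and cytokines were measured for 49 of 56 genes, with a median percentile of 39.7. MIF (8.53 ± 0.08), macrophage migration inhibitory factor, the angiogenic factor VEGFA (5.13 ± 0.03) and the Wnt antagonist SFRP1 (5.08 ± 0.18) lay in the top 10%. TGFB1 (4.41 ± 0.04), midkine (MDK, 4.30 ± 0.07) and interleukin-11 (IL11, 4.24 ± 0.08) were next. The stromal factors IGF1, HGF and CXCL12, pleiotrophin (PTN) and TNFSF11 were blank in all 4. MET was thus among the high receptors while its ligand HGF was blank.

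Glycolysis and cytoskeleton genes had high medians. Of 23 glycolysis genes, 22 were measured, with a median percentile of 94.2 and 13 in the top 10%, led after GAPDH by ENO1 (9.78 ± 0.15), PKM (9.02 ± 0.09) and LDHB (8.64 ± 0.08). LDHA, the lactate dehydrogenase subunit that favours lactate formation, read 8.03, 8.01, 7.38 and 7.86, lowest in library 3, and is named after its values were seen. All 34 cytoskeleton genes were measured, with a median percentile of 95.5 and 24 in the top 10%, led after VIM by the actins ACTG1 (10.58 ± 0.06) and ACTB (10.37 ± 0.04) and the actin-binding TMSB10 (10.54 ± 0.07). The smooth muscle genes TAGLN and CNN1, also named after their values were seen, stood apart from the rest at 0.12 ± 0.68 and -2.71 ± 0.55. TAGLN read -0.59, -0.26, 0.95 and 0.37, with libraries 3 and 4 above libraries 1 and 2.

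Spread between the control libraries was small for most genes and depended on level. Over the 9004 genes with a mean of at least 1, the median SD was 0.097, 52.1% had an SD under 0.1, and 49 genes (0.544%) had an SD of at least 0.5. The median SD was 0.758 for genes with a mean under -5 and 0.0736 for genes over 5. The low values of NELL1, COL1A2 and the blank-prone collagens therefore sit where libraries differ most.

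**Figure D4:**
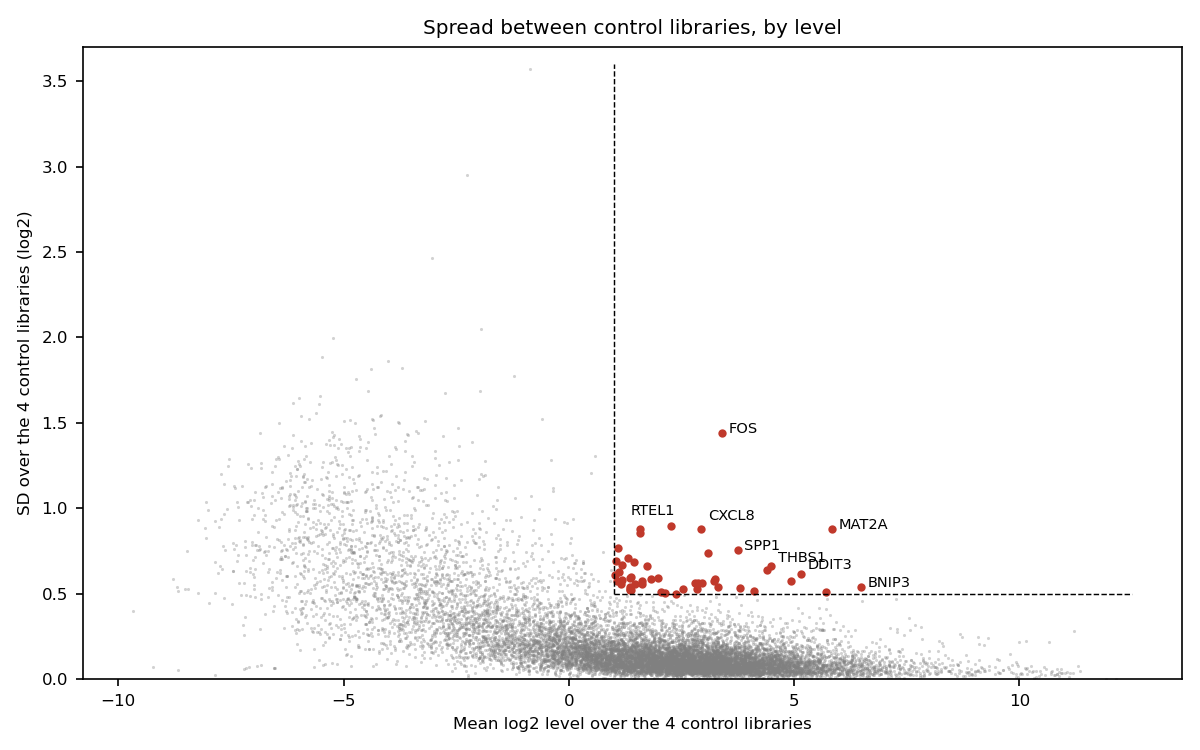
SD over the 4 control libraries (log2 units) against mean log2 level for each of the 14257 genes (points); the dashed lines mark a mean of 1 and an SD of 0.5, and the 49 genes past both are red. Spread narrows as the level rises, and FOS, at an SD of 1.44, stands above every other gene with a mean of at least 1.

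Most of the 49 genes that varied most were highest in library 3. Library 3 had the highest value for 34 of the 49 genes and the lowest for 14, against 37.7% and 40.2% of all 9004 genes. For 48 of the 49, library 4 lay between library 3 and both of libraries 1 and 2, against 48.3% of all. These genes were chosen by their spread in the same values, so the counts describe them and test nothing. FOS, a subunit of the AP-1 transcription factor that cells induce within minutes of serum or stress, read 2.15, 2.29, 5.17 and 3.97, a mean of 3.39 ± 1.44 (SD). Libraries 3 and 4 were far above libraries 1 and 2. CXCL8, the neutrophil chemokine interleukin-8, read 2.25, 2.27, 4.11 and 3.14, and MAT2A, which makes the methyl donor S-adenosylmethionine, read 5.10, 5.18, 6.95 and 6.15. RGS2, a brake on G protein signalling, THBS1, the matrix glycoprotein thrombospondin-1, and ID1, a BMP target, were also highest in library 3 and next highest in library 4, with means of 3.09 ± 0.74, 4.49 ± 0.66 and 4.39 ± 0.64. THBS1 read 3.96, 3.97, 5.35 and 4.68. SPP1 belonged to this set, so its middle level is an average over libraries that differed.

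Other genes ran the opposite way. DDIT3, the stress-induced factor CHOP, read 5.54, 5.57, 4.26 and 5.20. INHBE, an activin subunit induced by the same stress pathway, read 1.95, 1.94, 0.49 and 1.44. IL20RB, a subunit of receptors for the interleukin-20 family, and IGFBP1, an insulin-like growth factor binding protein, were also lowest in library 3, with means of 1.59 ± 0.85 and 1.30 ± 0.71. NME1-NME2, a read-through of neighbouring nucleoside diphosphate kinase genes, followed another library and read 2.01, 2.03, 2.00 and 0.26, low in library 4 alone. The read-through RBM14-RBM4 read 0.05, 1.13, 1.57 and 1.44, highest in library 3 but with most of its spread from a low library 1. Read-through genes share exons with their parts, so the values of both depend on how reads were divided. RTEL1, a telomere helicase, had the second largest SD (0.90) and read 1.49, 1.57, 3.36 and 2.64.

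The upstream sequence of CXCL8 is shown because it holds textbook binding motifs of the AP-1 and NF-kappaB factors. Among AP-1 genes, FOS, FOSB and JUN were clearly highest in library 3, as CXCL8 was. FOSL1 (5.90 ± 0.04), FOSL2 (2.66 ± 0.04) and JUND (3.86 ± 0.05) varied little. JUNB read 4.35, 4.40, 4.21 and 4.39 and was lowest in library 3. A link between AP-1 genes and the CXCL8 level was not tested. The 150 bases before its start site were taken from RefSeq, GRCh38.p14, plus strand, chr4:73740419-73740568, with the AP-1 motif, the NF-kappaB motif and the TATA box in capitals.
CXCL8: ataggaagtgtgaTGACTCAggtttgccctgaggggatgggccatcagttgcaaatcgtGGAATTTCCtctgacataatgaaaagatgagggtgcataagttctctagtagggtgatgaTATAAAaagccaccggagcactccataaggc
The AP-1 motif TGACTCA spans positions -137 to -131 from the start site, GGAATTTCC spans -91 to -83 and TATAAA spans -31 to -26. Counting either strand, TGACTCA was found in the 250 upstream bases of 1476 of 35116 promoters (4.20%), and GGAATTTCC in 0.413%. TATAAA, sought on the gene's own strand, was found in 6.80%. Among the 49 most variable genes 42 had a promoter entry, and the AP-1 motif was found in 3 of these, upstream of CXCL8, DDIT3 and NME1-NME2. DDIT3 ran opposite to CXCL8 between the libraries. A match is a description of letters and shows no binding.

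Several pathway lists were then read library by library. The proliferation list has been described, and the other 4 were chosen after the most variable genes had been seen. All 20 hypoxia response genes with a mean of at least 1 were lowest in library 3, among them PFKFB4 (3.65, 3.65, 2.41 and 3.28), a regulator of glycolytic flux, the mitophagy receptor BNIP3 (6.84, 6.82, 5.69 and 6.56), and ANGPTL4 (5.32, 5.36, 4.12 and 4.95), a secreted lipase inhibitor. The collagen hydroxylase P4HA1 belongs to this list too. The 2 listed hypoxia genes under that mean went the other way and were highest in library 3. They were EGLN3 (-0.74, -0.70, -0.20 and -0.25) and CA9 (-3.79, -2.39, -2.36 and -3.87). All 18 sterol and fatty acid synthesis genes were highest in library 3, among them INSIG1 (1.06, 1.38, 2.55 and 1.99), which restrains sterol synthesis, and the fatty acid synthase FASN (3.92, 3.89, 4.67 and 4.30). Of 18 integrated stress response genes with a mean of at least 1, 13 were lowest and none was highest in library 3. Asparagine synthetase ASNS read 6.53, 6.57, 5.95 and 6.38. ATF5, which lies under that mean, was highest in library 3 (-0.03, -0.23, 0.51 and 0.40). Proliferation genes were highest in library 3 for 33 of 38. Of 16 immediate-early genes with a mean of at least 1, 10 were highest there and 5 lowest. EGR1, a zinc finger factor of that class, read 2.91, 2.72, 2.46 and 2.64 and did not follow FOS. These lists are to be read against the 37.7% of all genes that were highest and the 40.2% that were lowest in library 3.

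**Figure D5:**
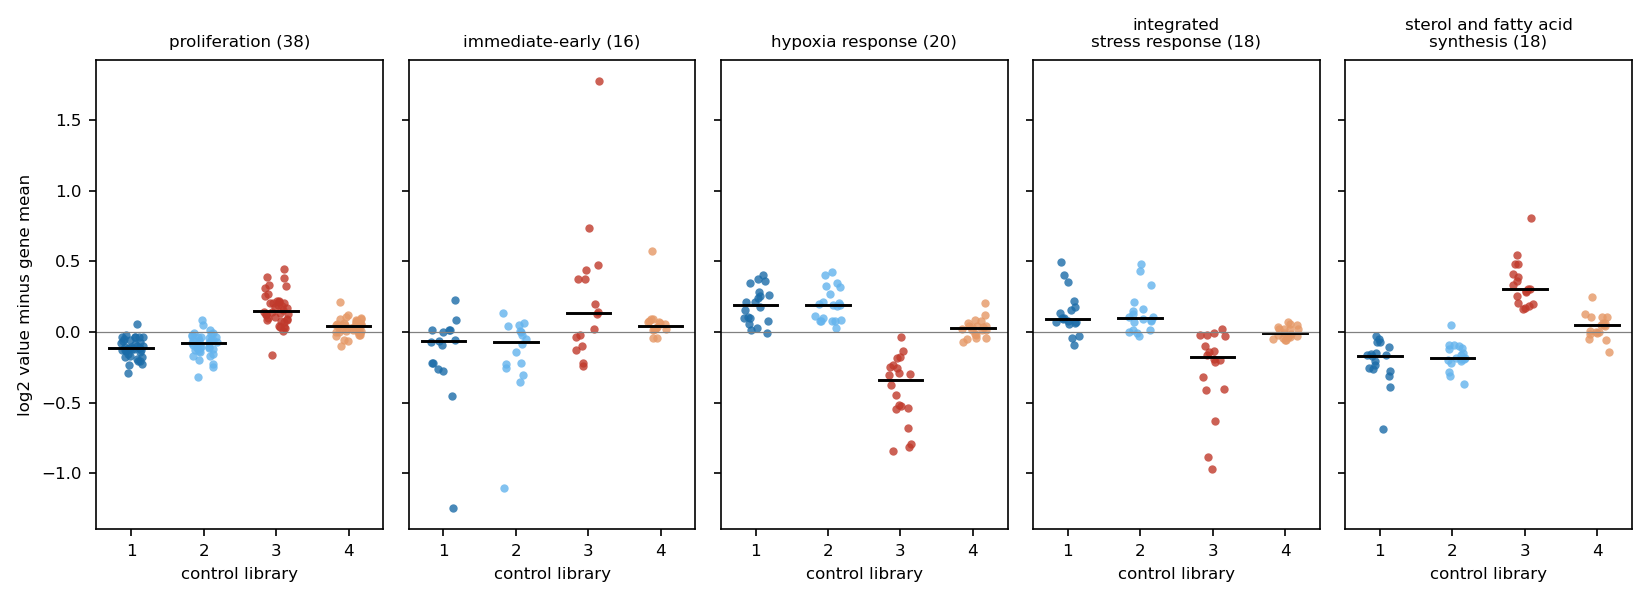
Deviation of each gene from its mean over the 4 control libraries (log2 units) by library, for proliferation genes and 4 lists chosen after the data were seen, genes with a mean of at least 1, with the median as a black bar. In library 3 all 20 hypoxia response genes shown lie lowest and all 18 sterol and fatty acid synthesis genes highest, while libraries 1 and 2 lie together. The hypoxia genes EGLN3 and CA9, under a mean of 1 and highest in library 3, are not shown.

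GC content moved with the same library. The median GC content of the longest coding transcript was 55.1% for the 49 variable genes and 48.3% for all genes with a mean of at least 1. It was 58.1% for the variable genes highest in library 3 and 51.0% for those lowest there, so both groups lay above all genes. The median difference of library 3 from the mean of libraries 1 and 2 was -0.13 in the 10% of genes lowest in GC and 0.10 in the 10% highest in GC. For library 4 these differences were -0.03 and 0.05. The part of GC content in the spread was not tested gene by gene. No date, lane or batch is labelled for the libraries.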

How the data were processed

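Total RNA of 143B cells was extracted with TRIzol and sequenced from stranded Illumina libraries, per the labels' protocols. The submitters' processing notes name bcl2fastq, Partek 7.0 and GRCh38; the aligner, counting program and annotation are not given in the sources used here. The authors deposited 1 log2 value per symbol and library, quantile normalized between libraries as the shared distribution shows. Base 2 was inferred: unlogged sums were 288385 to 293367 per library in base 2 and 3940433 to 4007024 in base e. The 100 lowest genes had a median longest coding transcript (GENCODE 29) of 5731 bases, against 3431 over 13827 genes and 1209 for the 100 highest. Genes with a mean of -4 to -3 had a median of 2960 bases, and 59 of the 100 highest encode ribosomal proteins. The lengths therefore do not settle whether levels are divided by length. No column of the table lacked a sample.

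Groups came from the sample titles. Genes with a value in all 4 vector-control libraries were ranked by mean log2 value (Python 3.11.15, pandas 2.3.3), and each list was described by its count, its median percentile and its number in the top 10%. No test was made, since 1 group is described. Spread was the SD over libraries among genes with a mean of at least 1. The rule for genes of large SD was tested on simulated data, and the percentile function on a short made-up series. The list summaries were not tested in this way. Members and lists were chosen with earlier results of these data known. Genes named were NELL1, RUNX2, SP7, ALPL, SPP1, IBSP, BGLAP, COL1A1, COL1A2, SPARC, VIM, TK1, CDKN2A, MTAP and MKI67, the 20 highest genes, the 6 highest and the wholly blank members of each list, the 20 genes of largest SD, and list members with an SD of at least 0.5. A few genes that this rule names are not reported here. Genes given as partners, neighbours or further examples outside this rule were named after their values were seen. Alternatives were ranking sets, low-value filters, scalings, a pseudocount of 1 and leaving out each library. Coordinates, gene classes and promoters came from RefSeq (GRCh38.p14), which matched 13941 of the genes, 99.6% of them protein coding.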

Additional observations from a re-analysis of the deposited data

Results flagged for a closer look

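Of 215 genes checked, 12 had 1 library far from the other 3, measured as the gap to the nearest other library divided by the whole range. Chance alone gives about 1 such group in 20, and 12 of 215 lies close to that share. The genes below are therefore listed as a description only. Library 3 was the distant one for 8 genes, library 4 for 3 and library 1 for 1. Over the 9004 genes with a mean of at least 1, library 3 was highest for 37.7% and lowest for 40.2%. Library 3 was the highest for TK1 (gap 0.963 of the range), the cyclin-dependent kinase CDK4 (0.952), the endothelial marker VWF (0.926), the ribosomal gene RPLP2 (0.922), the lysosomal protease CTSD (0.918) and GAPDH (0.902), and the lowest for the laminin chain LAMB1 (0.906) and the isomerase PPIB (0.887). Library 4 was the highest for RPS27 (0.974) and RPL26 (0.895) and the lowest for NME1-NME2 (0.98). Library 1 was the lowest for the cartilage collagen COL11A2 (0.858). The ranges were small for most of these: 0.07 for RPLP2, 0.08 for GAPDH, 0.10 for RPS27 and 0.44 for TK1 on the log2 scale. They were wide for NME1-NME2 (1.78), COL11A2 (1.24) and VWF (0.88), and the last 2 of these lie at low levels. Among the highest genes the common distribution nearly fixes the value of each rank, so a gap there can be a step between ranks. RPS27 in library 4 read 11.41, which was also the value of MMP1 in libraries 1 and 2 and of S100A6 in library 3.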

How the results depend on the processing

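No paired analysis was possible because 1 group is described and no result comes from a test. The set of ranked genes moved the list medians most. Keeping only genes with a mean of at least 1 also drops the lower members of a list. It left 12 of 31 collagen genes, 12 of 23 integrin genes and 12 of 49 markers of other cell types. Medians under that setting describe only the higher members that were kept. Ranking only genes with a mean of at least 1, which shortens the ranking from 14257 to 9004 genes, gave median percentiles of 32.0 for osteoblast transcription factors, 53.7 for osteoblast matrix and mineral genes, 82.1 for collagens, 67.1 for glycoproteins, 33.2 for proteoglycans, 74.1 for collagen modification, 88.4 for proteases, 47.9 for receptor tyrosine kinases, 83.7 for integrins, 19.3 for TGF-beta and BMP receptors, 51.2 for Wnt and Notch receptors, 42.5 for cytokine and death receptors, 56.0 for surface antigens, 82.3 for proliferation, 57.9 for growth control, 58.3 for telomere maintenance, 25.1 for HOX, 76.0 for MHC, 43.5 for secreted factors, 91.9 for glycolysis, 94.3 for cytoskeleton and 74.9 for markers of other cell types. Ranking genes with a value in at least 1 library (16018 genes), which adds low ones, gave 47.9, 32.2, 23.1 and 62.9 for osteoblast factors, osteoblast matrix, collagens and glycoproteins, 66.4 for collagen modification, 35.2, 40.9, 49.5, 44.2 and 61.3 for the kinase, integrin, TGF-beta, Wnt and cytokine receptors, 90.1 for proliferation, 74.9 for telomere maintenance, 34.9 for HOX, 41.9 for MHC, 46.0 for secreted factors, 94.9 for glycolysis, 96.0 for cytoskeleton and 17.6 for markers of other cell types. That marker median was 13.6 with medians over libraries. When each library was left out in turn, the medians ran from 37.3 to 45.6 for osteoblast matrix genes, where leaving out library 1 brings in MGP, from 30.9 to 32.8 for receptor tyrosine kinases, 27.5 to 28.1 for HOX genes, 38.8 to 42.5 for secreted factors and 11.1 to 12.8 for markers of other cell types. The 20 highest genes shared 19 or 20 members in each case.

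The spread rests on library 3. Leaving out each library in turn gave 6 to 84 genes with an SD of at least 0.5, against 49: 6 without library 3, 5 of them among the 49, and 84 without library 4. Without a filter on level the count was 1420, with a mean of at least 3 it was 15, and with a pseudocount of 1 it was 18. Averaging libraries 1 and 2, a setting picked with the data in view, gave 57, which included all 49. Without the filter the SD of the difference was 0.379 for libraries 1 and 2, 0.540 for libraries 1 and 3 and 0.415 for libraries 3 and 4. Among the middle 20% of genes by GC content, also chosen after seeing the data, these SDs were 0.092, 0.263 and 0.178, against 0.101, 0.287 and 0.193 over all. The cause of the difference of library 3 was not tested. Depth is unknown, so blanks and low values carry no detection limit.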
